A study of Mus musculus with 6 samples.

Results

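Among the genes by which stromal cells restrain immune cells, Cd274, the gene of the checkpoint ligand PD-L1, was lower in CD73+ AD-MSCs than in their CD73- counterparts, while Ptges and Ptgs2, which make prostaglandin E, and Tnfaip6, the gene of the hyaluronan-binding protein TSG-6, were higher. Cd274 fell by 0.93 on the log2 scale, which is 1.90-fold. Ptges rose by 0.60 (1.52-fold), Tnfaip6 by 0.50 (1.42-fold) and Ptgs2 by 0.24 (1.18-fold). The Ptgs2 call was the least firm, since it was lost without any of 5 of the 6 arrays, and its second probe set did not pass. Lgals1, Lgals9, Nos2, Ido1 and Arg1 did not pass the test. The values compared are log2 signals of 3 arrays of each subgroup on the deposited scale.

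The set was fixed by function as Ptgs1, Ptgs2, Ptges, Nos2, Ido1, Tnfaip6, Lgals1, Lgals9, Cd274 and Arg1. A probe set is a group of short probes against 1 or more transcripts. Members of the set are the probe sets that the platform's annotation gives to only 1 of these 10 genes. This gave 13 of 45037 probe sets and 9 of 18193 genes, and no probe set named a member together with another gene. Ptgs1, the constitutive cyclooxygenase, is unnamed here. Ptges was read by 3 probe sets, Ptgs2 and Lgals1 by 2 each, and the other 6 genes by 1 each.

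Mesenchymal stromal cells hold back T cells, macrophages and other leukocytes largely through small molecules and surface or secreted proteins. Cyclooxygenase and prostaglandin E synthase turn arachidonic acid into prostaglandin E2, inducible nitric oxide synthase and arginase use arginine, and indoleamine dioxygenase breaks down tryptophan, while PD-L1 and galectins bind receptors on T cells. Interferon gamma together with TNF or IL-1 is known to induce several of these genes. In cultures of mouse stromal cells the inducible nitric oxide synthase is known as the main brake on T cells, and in those of human cells indoleamine dioxygenase.

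CD73+ and CD73- AD-MSCs, mesenchymal stromal cells grown from the groin fat of adult C57BL/6 mice, were sorted by flow cytometry on CD73, the ecto-enzyme encoded by Nt5e that makes adenosine, and were cultured further in low-sugar DMEM with serum. RNA of the fifth passage was hybridised to Affymetrix mouse arrays, 3 for the CD73+ and 3 for the CD73- subgroup, and the labels mention no cytokine given to either subgroup. Whether a subgroup's arrays stem from separate sorts or cultures is not in the labels, and p-values therefore measure the spread between these arrays alone, which may be technical. Nt5e had a log2 level of 7.73 ± 0.12 in CD73+ and 6.84 ± 0.45 in CD73- AD-MSCs (SD, n = 3 each) on the brightest of its 3 probe sets, which differed by 0.88 (limma's adjusted p = 0.0218), and its other probe sets did not pass.

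The 6 array medians ranged over 5.28 to 5.37 in log2 signal. Within a subgroup, r across probe sets, which are not independent replicates, was 0.997 to 0.998. Across all probe sets 18.9% passed limma's adjusted p under 0.05, 9.79% higher and 9.11% lower in CD73+ AD-MSCs. The poly-A control probe sets, of transcripts normally spiked into the RNA, were lower in CD73+ AD-MSCs by 0.93 on average. Scaling each array to them moves the median difference of all probe sets to 0.93, so that every direction given here is relative to the bulk of the probe sets and not to a spike. After that scaling 12 of the 13 probe sets were called higher and Cd274 differed by -0.0018. In RNA of a whole culture, fewer cells that make a transcript and less of it per cell cannot be told apart.

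Of the 13 probe sets, 4 were higher and 1 was lower at limma's adjusted p under 0.05, a share of 38.5% against 18.9% of all probe sets. The members were chosen with results of these data known and some share a gene, so this share is a description. At an unadjusted p under 0.05 the count was 7. The values of the subgroups did not overlap on 10 of the 13, which was the case for 34.9% of all probe sets. On 9 of these 10 the CD73+ values lay above the CD73- values, and on the Cd274 probe set they lay below. The median difference of the 13 probe sets was 0.14, against -0.00019 for all probe sets. Read by gene from the brightest probe set, it was 0.069 for the 9 member genes, against -0.018 for all genes.

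**Figure D1:**
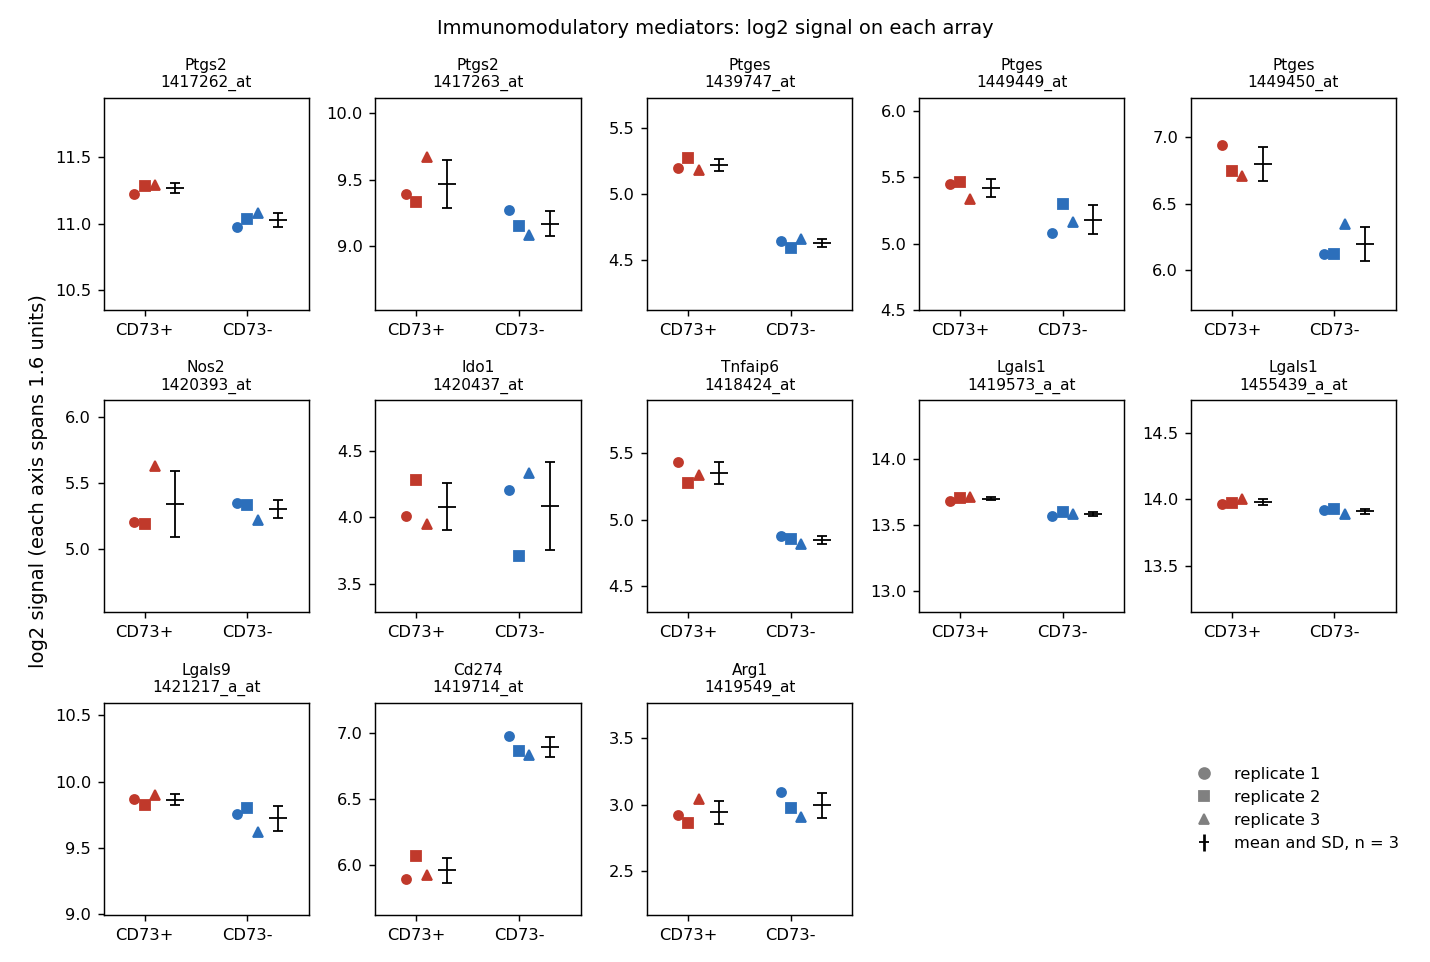
Log2 signal of the 13 probe sets on each array, with CD73+ (red) left of CD73- AD-MSCs (blue) and the mean and SD of 3 arrays beside them; every vertical axis spans the same number of log2 units. The subgroups stand apart most on the Cd274 probe set, at means of 5.96 and 6.89, and the values of Nos2, Ido1 and Arg1 overlap.

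Cd274 was the only one of the 9 genes called lower at limma's adjusted p under 0.05. Its ligand product PD-L1 binds PD-1 on activated T cells and restrains them. Its log2 level was 5.89, 6.07 and 5.93 on the CD73+ arrays, against 6.98, 6.86 and 6.83 on the CD73- arrays. All 3 CD73+ values lay below all 3 CD73- values, and the gap between the subgroups was several times the range within either of them, 0.17 among CD73+ and 0.14 among CD73- arrays. The difference was -0.93 (standard error 0.072, 95% interval -1.10 to -0.76, limma's adjusted p = 0.00032), and 99.3% of all probe sets differed by less in size. Without any 1 array the difference ran from -0.98 to -0.89 and kept its call.

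Genes around the PD-L1 checkpoint did not fall with it as a group. Of 14 other checkpoint ligands and receptors, each read from its brightest probe set, 1 was higher and 1 lower at limma's adjusted p under 0.05, with a median difference of 0.064. Among all genes read this way 10.1% were higher and 12.6% lower, with a median of -0.018. Pdcd1lg2, the gene of the second PD-1 ligand PD-L2, had a log2 level of 3.96 in CD73+ and 4.05 in CD73- AD-MSCs (limma's adjusted p = 0.599), and its receptor gene Pdcd1 had 4.14 and 4.25 in the same order (limma's adjusted p = 0.584). Fas, a death receptor, rose by 0.51. Cd200, a surface ligand that restrains myeloid cells, fell by 0.41, at a mean level that only 11.9% of probe sets were below. The genes called lower were 2 without CD73+ replicate 3 and with a trend in limma, and 0 with the filter at the median level. Cd276, Cd80, Cd86, Icosl, Vtcn1, Tnfrsf14, Cd40 and Fasl did not pass. Cd47, a signal that restrains phagocytes, did not pass on its brightest probe set, at 0.090, but was higher on 3 of its 5, by up to 0.61. Pvr, a ligand of the checkpoint receptor TIGIT, did not pass on its brightest at -0.23, and was lower on 1 of 7.

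The members that moved are the 4 genes that passed. Their upstream sequences are shown, because interferon and NF-kB are known inducers of several genes of the set. They are RefSeq sequences of GRCm38.p6, given 5′ to 3′ on the gene's strand and ending at the base before the annotated start, in lower case with motif matches in capitals.
Cd274, chr19:29367188-29367437, + strand: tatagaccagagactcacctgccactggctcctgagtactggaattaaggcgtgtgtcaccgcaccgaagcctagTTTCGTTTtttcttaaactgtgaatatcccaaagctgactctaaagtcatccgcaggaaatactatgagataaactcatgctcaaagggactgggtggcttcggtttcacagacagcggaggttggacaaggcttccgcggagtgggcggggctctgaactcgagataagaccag
Tnfaip6, chr2:52037863-52038112, + strand: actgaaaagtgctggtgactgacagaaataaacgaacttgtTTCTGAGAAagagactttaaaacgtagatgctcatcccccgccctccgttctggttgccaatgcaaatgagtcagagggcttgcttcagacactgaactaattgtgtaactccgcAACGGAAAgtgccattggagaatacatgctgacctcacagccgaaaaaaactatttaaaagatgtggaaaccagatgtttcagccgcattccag
Ptges, chr2:30903298-30903547, - strand: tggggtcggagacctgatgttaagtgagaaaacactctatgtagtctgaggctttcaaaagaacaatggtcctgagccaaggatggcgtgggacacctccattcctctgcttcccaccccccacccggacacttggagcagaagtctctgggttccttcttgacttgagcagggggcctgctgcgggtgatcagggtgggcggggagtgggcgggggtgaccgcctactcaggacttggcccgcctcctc
Ptgs2, chr1:150099781-150100030, + strand: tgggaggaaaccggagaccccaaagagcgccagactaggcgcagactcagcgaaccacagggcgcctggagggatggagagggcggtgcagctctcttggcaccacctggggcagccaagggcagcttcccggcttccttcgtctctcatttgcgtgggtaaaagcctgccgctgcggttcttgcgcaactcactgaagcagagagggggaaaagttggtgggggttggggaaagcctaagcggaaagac
For Cd274 and Ptges the gene range in RefSeq begins further upstream than this start, so these stretches lie inside the range.

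The 250 bases before the start were searched on both strands for 5 motifs. These were AANNGAAA, the element of interferon regulatory factors, TTCNNNGAA, the gamma-activated site that STAT proteins bind, GGANTTTCC, an NF-kB site, TGACGTCA, the cAMP response element, and TATAAA, the TATA box. The Cd274 stretch held 1 match, the interferon regulatory factor element as TTTCGTTT on the opposite strand, 175 to 168 bases before the start. The Tnfaip6 stretch held the gamma-activated site TTCTGAGAA, 209 to 201 bases before the start, and the interferon regulatory factor element AACGGAAA, 94 to 87 bases before it, and these do not overlap. The Ptges and Ptgs2 stretches held no match to these letters, nor did that of Ptgs1. The stretch of Lgals9, which did not pass, held the interferon regulatory factor element at 2 places. Of all 32851 promoters in the table, 21.3% held the interferon regulatory factor element, 7.02% the gamma-activated site, 1.07% the NF-kB letters, 1.55% the cAMP response element and 12.4% the TATA box. A match is a description of the letters and not a bound site. A promoter was matched for 6 of the 10 genes.

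The prostaglandin genes Ptges and Ptgs2 were higher in CD73+ AD-MSCs. Ptges encodes the microsomal synthase that makes prostaglandin E2 from prostaglandin H2. On its brightest probe set, 1449450_at, the log2 level was 6.94, 6.74 and 6.71 on the CD73+ arrays, against 6.12, 6.12 and 6.34 on the CD73- arrays. CD73+ replicate 1 was the highest and CD73- replicate 3 lay nearest to the other subgroup, without overlap. The difference was 0.60 (standard error 0.092, 95% interval 0.39 to 0.82, limma's adjusted p = 0.00395).
The other Ptges probe sets had higher means in CD73+ AD-MSCs too, and 1 of them passed. On 1439747_at the level was 5.20, 5.27 and 5.18 on the CD73+ arrays, against 4.64, 4.60 and 4.66 on the CD73- arrays. The replicates lay close together there, and the difference was 0.59 (standard error 0.056, limma's adjusted p = 0.000651). This probe set lay below the middle of the arrays, with 43.8% of probe sets dimmer. On 1449449_at it was 5.45, 5.47 and 5.34 on the CD73+ arrays, against 5.08, 5.30 and 5.16 on the CD73- arrays. This difference of 0.24 did not pass (limma's adjusted p = 0.0699), although the subgroups did not overlap. Probe sets of a gene share RNA and arrays and are not replicates. The mean of the 3 gave a difference of 0.48 (limma's adjusted p = 0.000858).
Ptgs2 encodes the inducible cyclooxygenase COX-2, which supplies the synthase with its substrate. On its brightest probe set, 1417262_at, the log2 level was 11.22, 11.29 and 11.29 on the CD73+ arrays, against 10.97, 11.04 and 11.08 on the CD73- arrays. The signal was strong in both subgroups, with 97.7% of probe sets dimmer, and the subgroups did not overlap. The difference was 0.24 (standard error 0.058, 95% interval 0.10 to 0.37, limma's adjusted p = 0.0272). The second probe set had 9.39, 9.33 and 9.67 on the CD73+ arrays, against 9.27, 9.15 and 9.08 on the CD73- arrays, a difference of 0.30 that did not pass (limma's adjusted p = 0.0855). The Ptgs2 call is near the threshold. It ended without CD73+ replicate 1, 2 or 3 or CD73- replicate 1 or 2 (limma's adjusted p 0.0641 to 0.0952) and after median centring (0.20, limma's adjusted p = 0.0717).

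**Figure D2:**
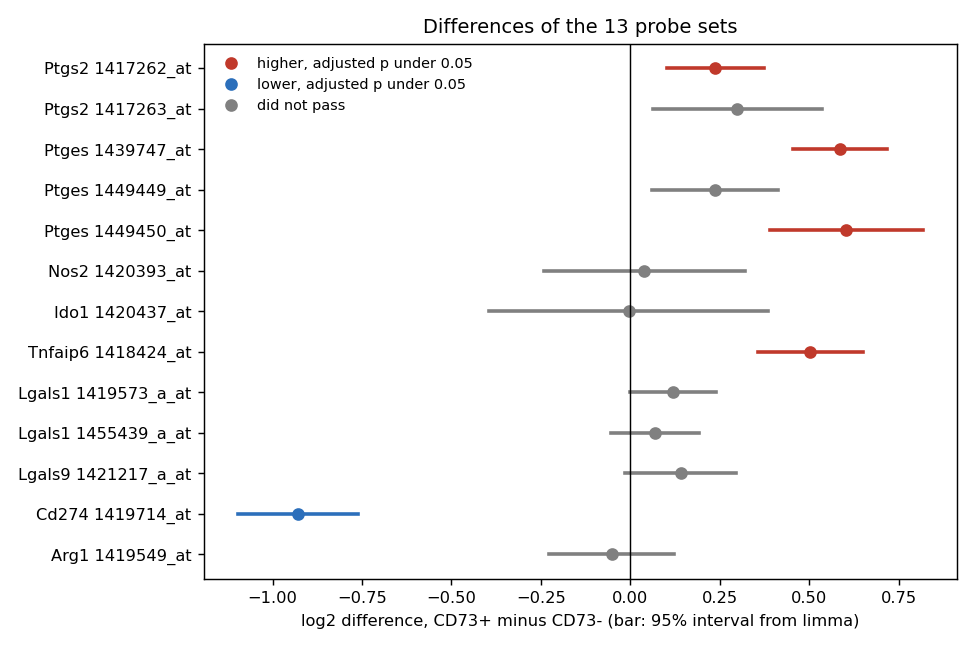
CD73+ minus CD73- log2 difference on the horizontal axis for each of the 13 probe sets, with bars of the 95% interval from limma (3 arrays per subgroup). Cd274 lies at -0.93, the Ptges probe sets between 0.24 and 0.60, and the intervals of Nos2, Ido1, Lgals1, Lgals9 and Arg1 include 0.

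Around these enzymes, synthase, transporter and receptor genes of prostaglandins were in part higher. Of 19 measured genes of the pathway other than the members, 5 were higher and 1 was lower, with a median of 0.031. These are shares of 26.3% and 5.26%, against 10.1% and 12.6% of all genes. Ptgis, which makes prostacyclin from the same substrate, rose by 0.74 (standard error 0.066, limma's adjusted p = 0.00049), and Ptgfr, the receptor of prostaglandin F, by 0.46. Slco2a1, which carries prostaglandins into cells, rose by 0.42 on its brightest and passed on all 4 of its probe sets. Ptger4, a receptor of prostaglandin E2, rose by 0.33 and passed on 1 of its 2 probe sets, and Cbr1, a carbonyl reductase, rose by 0.28. Abcc4, an exporter of prostaglandin E2, fell by 0.36. The calls of Ptger4 and Cbr1 ended without CD73+ replicate 1, 2 or 3 or CD73- replicate 1 or 2 (limma's adjusted p 0.0518 to 0.111), and that of Ptgfr without CD73+ replicate 1 or 2 or CD73- replicate 1 or 2 (0.0681 to 0.107), and 4 other Ptgfr probe sets did not pass. The genes called higher were 3 without CD73+ replicate 3 and 2 without any of the other 4 of these arrays. Pla2g4a, which frees arachidonic acid, had 10.46 in CD73+ and 10.43 in CD73- AD-MSCs, and Hpgd, which inactivates prostaglandin E2, had 3.33 and 3.39 in the same order, neither of which passed. Another synthase of prostaglandin E, Ptges2, had 7.58 in CD73+ and 7.66 in CD73- AD-MSCs (limma's adjusted p = 0.528), and Ptges3 was not read. Ptgds, a synthase of prostaglandin D, did not pass on its brightest probe set, at -0.070, and was lower on its other, at -0.44.

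Tnfaip6 was higher in CD73+ AD-MSCs. TSG-6 is secreted in inflammation, binds hyaluronan and transfers heavy chains of inter-alpha-inhibitor onto it. Its log2 level was 5.44, 5.28 and 5.34 on the CD73+ arrays, against 4.88, 4.85 and 4.82 on the CD73- arrays. Every CD73+ value lay above every CD73- value. The difference was 0.50 (standard error 0.062, 95% interval 0.36 to 0.65, limma's adjusted p = 0.00175), and it kept its call without any 1 array, at 0.46 to 0.54. The level lay near the middle of the arrays, with 46.6% of probe sets dimmer, and on the CD73- arrays below every array median. The deposited values carry no detection call, so whether the transcript was present in both subgroups was not tested.
Genes of the hyaluronan matrix that TSG-6 acts on were in part higher. Of 15 measured, 4 were higher and 0 were lower at limma's adjusted p under 0.05 (6 and 1 at an unadjusted p under 0.05), with a median of 0.074. The adjusted shares were 26.7% and 0%, against 10.1% and 12.6% of all genes. Vcan, the hyaluronan-binding proteoglycan versican, rose by 1.30 and Has2, a hyaluronan synthase, by 0.93. Vcan had a log2 level of 10.67 ± 0.041 in CD73+ and 9.37 ± 0.090 in CD73- AD-MSCs (SD, n = 3 each) and passed on 4 of its 8 probe sets, Has2 on both of its probe sets. Cemip, which binds and degrades hyaluronan, rose by 0.67 on 1 of 3 probe sets, and Itih2, an inter-alpha-inhibitor heavy chain, by 0.29, a call that ended without CD73+ replicate 2 (limma's adjusted p = 0.0700) or CD73- replicate 2 (0.0663). The count of lower genes was 1 without CD73- replicate 1, with the replicate block, and after quantile normalization, median centring or cyclic loess. Ptx3, a TSG-6 partner in the matrix, had a high level that did not pass, 12.25 in CD73+ and 12.30 in CD73- AD-MSCs, and Cd44, the hyaluronan receptor, had 11.43 and 11.25 in the same order (limma's adjusted p = 0.0745).

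Lgals1 and Lgals9, the galectins that bind sugars on T cells, were strongly detected and did not pass. Lgals1 had 13.97, 13.97 and 14.01 on the CD73+ arrays, against 13.92, 13.93 and 13.89 on the CD73- arrays, on its brightest probe set. These values lie at the top of the arrays, with 99.99% of probe sets dimmer. The subgroups did not overlap, and the difference was 0.069 (95% interval -0.053 to 0.19, limma's adjusted p = 0.448). The second Lgals1 probe set had 13.68, 13.71 and 13.71 on the CD73+ arrays, against 13.57, 13.60 and 13.58 on the CD73- arrays, a difference of 0.12 (95% interval -0.0021 to 0.24, limma's adjusted p = 0.172). The SD within a subgroup was 0.014 there, against a median of 0.10 over all probe sets. Lgals9 had 9.87, 9.82 and 9.90 on the CD73+ arrays, against 9.75, 9.80 and 9.62 on the CD73- arrays. Its values lay higher in CD73+ AD-MSCs without overlap, by 0.14 (95% interval -0.014 to 0.30, limma's adjusted p = 0.206). With a spread that limma lets depend on the level, both Lgals1 probe sets and Lgals9 passed (adjusted p of limma with a trend 0.0443 and 0.00138 for Lgals1 and 0.0456 for Lgals9). The second Lgals1 probe set passed also with the filter at the median level (limma's adjusted p = 0.0454). It passed as well in the methods' t-test after Benjamini-Hochberg adjustment (adjusted p = 0.0105).
Of 11 measured galectins and partners other than these, 1 was higher and 3 were lower (3 and 3 at an unadjusted p under 0.05), with a median of 0.024. The adjusted shares were 9.09% and 27.3%, against 10.1% and 12.6% of all genes. The counts were 3 and 3 also with a trend in limma and with the filter at the median level, and 2 and 3 with cyclic loess. Lgals3bp, a secreted protein that binds galectin-3, rose by 0.41. Havcr2, the gene of TIM-3, a receptor of galectin-9, fell by 0.35, Lgals8 by 0.34 on its brightest and 0.51 on its other probe set, and Lgals3, an abundant galectin, by 0.26. Without CD73+ replicate 2 the Havcr2 and Lgals3 calls ended (limma's adjusted p 0.0557 and 0.050003) and 1 gene was called lower, and the Lgals3 call ended also without CD73+ replicate 1 (0.0535).

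Nos2, Arg1 and Ido1, the enzymes that use arginine and tryptophan, showed values that overlapped between the subgroups. Nos2, the inducible nitric oxide synthase, had 5.21, 5.19 and 5.63 on the CD73+ arrays, against 5.35, 5.34 and 5.23 on the CD73- arrays. CD73+ replicate 3 was the highest, and the other CD73+ values lay below every CD73- value. The difference was 0.039 (95% interval -0.24 to 0.32, limma's adjusted p = 0.878), and it ran from -0.10 to 0.11 without any 1 array. Ido1, indoleamine dioxygenase, had 4.01, 4.28 and 3.95 on the CD73+ arrays, against 4.21, 3.71 and 4.34 on the CD73- arrays. Its spread was the widest of the 13 probe sets in CD73- AD-MSCs, where the values ranged over 0.62. The difference was -0.0049 (95% interval -0.40 to 0.39, limma's adjusted p = 0.99). Arg1, the arginase of the urea cycle and of alternatively activated macrophages, had 2.92, 2.86 and 3.04 on the CD73+ arrays, against 3.10, 2.98 and 2.91 on the CD73- arrays. These levels lay near the lowest of the arrays, with 7.90% of probe sets dimmer, and the difference was -0.053 (95% interval -0.23 to 0.12, limma's adjusted p = 0.716). With 29.1% of probe sets dimmer Ido1 lay low too, and the table holds no detection call, so whether these transcripts were present was not tested.
Of 15 other genes of nitric oxide and arginine metabolism, 2 were higher and 2 were lower, with a median of 0.041. That is 13.3% in each direction, close to the 10.1% and 12.6% of all genes. Ddah2, which breaks down inhibitors of nitric oxide synthase, rose by 0.58 and Oat, which uses ornithine, by 0.29. Gch1, which makes a cofactor of nitric oxide synthase, fell by 0.44, although its other probe set had 0.38 that did not pass, and Slc7a1, an arginine transporter, fell by 0.34 and passed on all 3 of its probe sets. The Oat call ended without CD73+ replicate 1 or 2 (limma's adjusted p 0.0563 and 0.05035), which left 1 gene called higher. Median centring, quantile normalization, the filter at the median level and limma with a trend each gave 4 lower. Arg2, the other arginase gene, had 3.12 in CD73+ and 2.95 in CD73- AD-MSCs (limma's adjusted p = 0.277).
Of 15 genes of tryptophan use and kynurenine breakdown, 0 were higher and 4 were lower in limma (1 and 4 at an unadjusted p under 0.05), with a median of -0.11. The adjusted shares were 0% and 26.7%, against 10.1% and 12.6% of all genes. With a trend in limma 1 was higher, and likewise with the filter. The genes that fell serve amino acid transport or protein synthesis, apart from Kyat1, a kynurenine aminotransferase. Slc3a2 and Slc7a5, the chains of a transporter of large neutral amino acids, fell by 0.57 and 0.41, Wars, the tryptophanyl-tRNA synthetase, by 0.39 and Kyat1 by 0.40. Wars passed on all 4 of its probe sets and Kyat1 on 1 of 4. The Kyat1 call ended without replicate 1 of either subgroup or CD73- replicate 2 (limma's adjusted p 0.0652, 0.0604 and 0.0627). Ido2 and Tdo2, the other enzymes of the first step, had 3.72 and 4.24 in CD73+ and 3.78 and 4.27 in CD73- AD-MSCs, and neither passed.

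**Figure D3:**
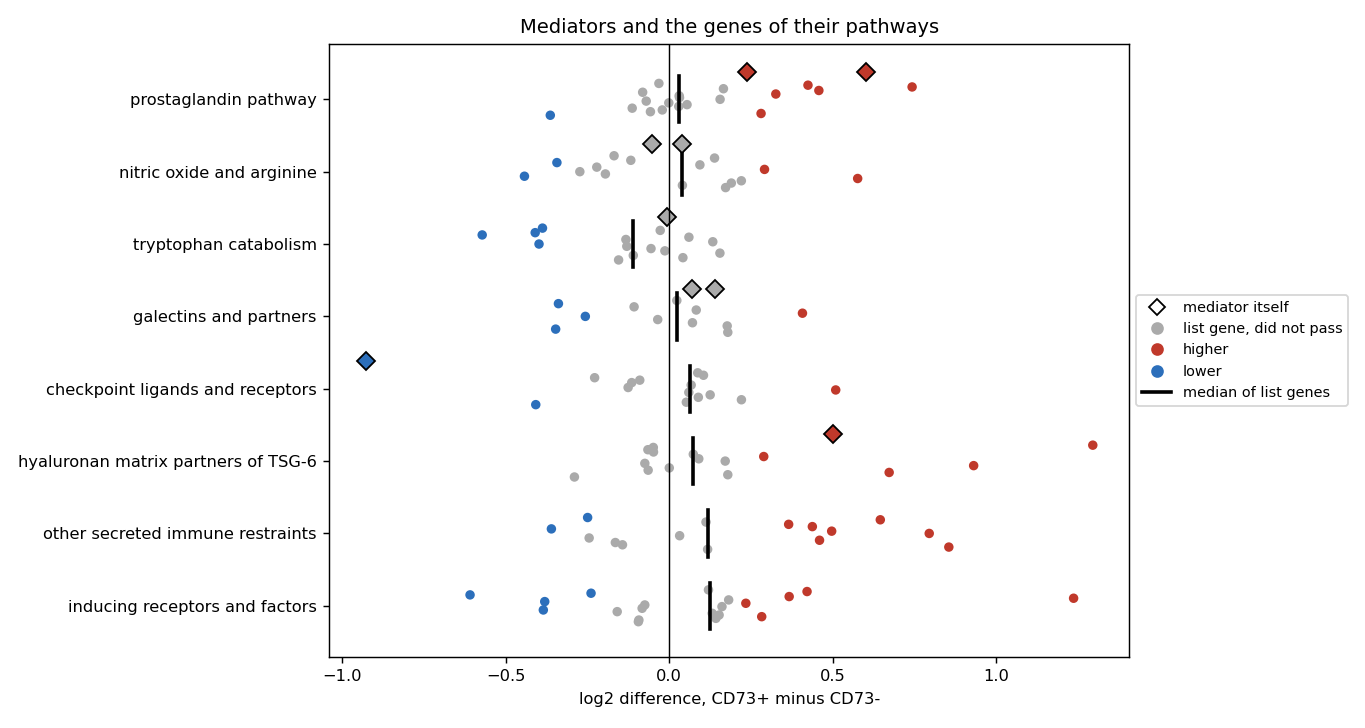
CD73+ minus CD73- log2 difference of the mediators (diamonds, by brightest probe set) and of the other genes of their pathways (dots, 1 per gene), where black bars give the medians of the list genes alone. Red and blue passed upwards and downwards at limma's adjusted p under 0.05; Cd274 at -0.93 lies left of all other checkpoint genes, and Vcan at 1.30 is the highest dot.

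Other factors listed as immune restraints, most of them secreted, were in part higher and in part lower. The list also holds Hmox1, an enzyme inside cells, and Il6 and Ccl2, which can also promote inflammation. Its shares are therefore not a measure of restraint alone. Of 15 measured, 7 were higher and 2 were lower at limma's adjusted p under 0.05, with a median of 0.12. These are shares of 46.7% and 13.3%, against 10.1% and 12.6% of all genes. Ccl2, a monocyte chemokine, rose by 0.86 (log2 level 12.00 ± 0.016 in CD73+ and 11.14 ± 0.022 in CD73- AD-MSCs, SD, n = 3 each) and Il1rn, the IL-1 receptor antagonist, by 0.80, with all 3 of its probe sets past the threshold. Lif, a cytokine of the IL-6 family, fell by 0.36 and Tnfrsf11b, the decoy receptor osteoprotegerin, by 0.25. The Tnfrsf11b call ended without CD73+ replicate 1, 2 or 3 or CD73- replicate 1 or 2 (limma's adjusted p 0.0527 to 0.11), and the genes called lower were 1 without any of these but CD73+ replicate 3. Anxa1, which restrains neutrophils, did not pass on its brightest probe set, at 0.12, and was higher on its other, by 1.37. Il10, the anti-inflammatory cytokine, had 2.71 in CD73+ and 2.96 in CD73- AD-MSCs (limma's adjusted p = 0.176).
Receptors and factors through which interferon gamma, TNF, IL-1 and microbial products can induce several genes of the set moved in both directions. Of 20 measured, 5 were higher and 4 were lower (25% and 20%, against 10.1% and 12.6% of all genes), with a median of 0.13. Socs3, a feedback inhibitor of cytokine signalling, rose by 1.24 and passed on all 3 of its probe sets, and Tnfrsf1a, a TNF receptor, rose by 0.42. Tlr2 rose by 0.37, Il1r1, the IL-1 receptor, by 0.28 and Nfkbia, an inhibitor of NF-kB, by 0.23. Tlr3, a receptor for double-stranded RNA, fell by 0.61, Irf9, part of the interferon-activated factor that binds DNA, by 0.38, Rela, an NF-kB subunit, by 0.38 and Tlr4 by 0.24. Tlr4 passed on 1 of its 4 probe sets, Tlr3 and Il1r1 each on 1 of 2 and Nfkbia on 2 of 5. Nfkbia and Il1r1 lost their calls without CD73+ replicate 1 or 2 or CD73- replicate 1 or 2 (limma's adjusted p 0.053 to 0.1035), Tlr2 without CD73+ replicate 1 or 2 or CD73- replicate 2 (0.055 to 0.0589), Irf9 without CD73+ replicate 1 (0.0506), and Tlr4 without any 1 array other than CD73+ replicate 1 (0.0579 to 0.128). The genes called higher were then 2 without CD73+ replicate 1 or 2 or CD73- replicate 2 and 3 without CD73- replicate 1. Over the 8 lists, 10 genes that did not pass on their brightest probe set passed on another. Cd47, Anxa1, Itgb1 and Tgfb2 passed as higher there, as did Il1rap, a chain of the IL-1 receptor, on 2 of 5. Ptgds, Odc1, Cyp1b1 and Pvr passed as lower, and Ddah1 passed in both directions.

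**Figure D4:**
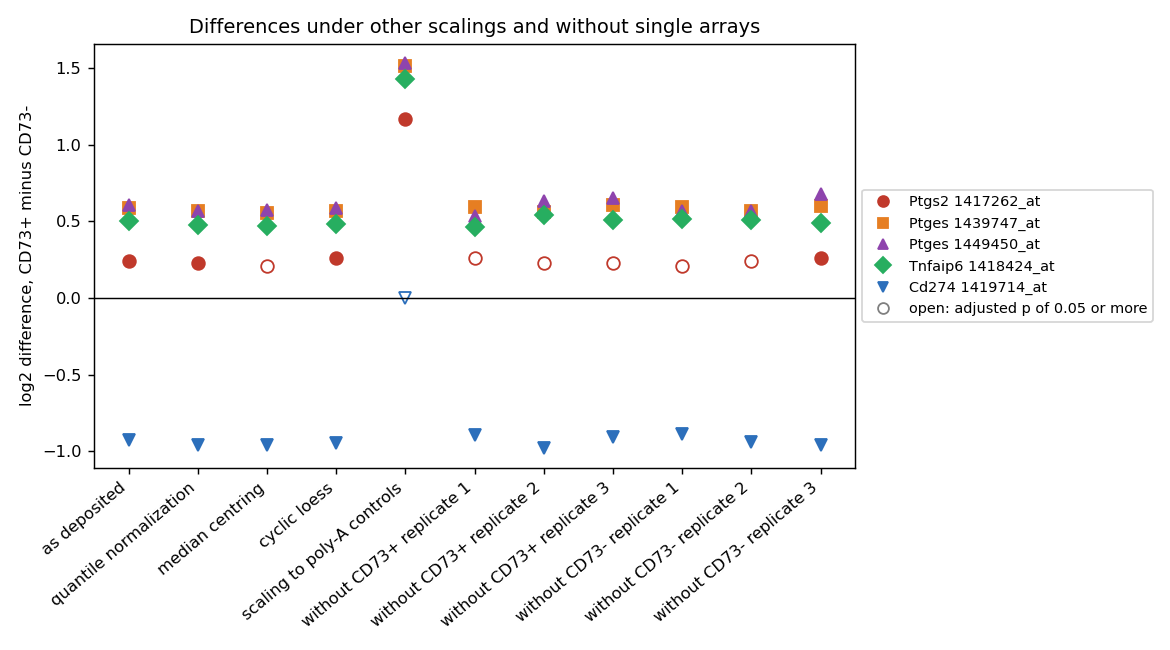
CD73+ minus CD73- log2 difference of the 5 probe sets that passed, on the deposited scale, under 4 other scalings and without each array; open symbols did not pass limma's adjusted p of 0.05. Ptges and Tnfaip6 stay filled throughout, Ptgs2 lies near the threshold, and Cd274 moves to -0.0018 only under the scaling to the poly-A controls.

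Marker lists of the cell types that a sort from fat could hold were read beside the mediators. Over all genes, 10.1% were higher and 12.6% lower at limma's adjusted p under 0.05. Several of the mediators are also made by macrophages. Of 17 macrophage and leukocyte markers, 2 were higher and 0 were lower in limma (3 and 0 at an unadjusted p under 0.05), with a median of 0.055 and a summed linear signal of 608 to 633 on the CD73+ and 518 to 565 on the CD73- arrays. Csf1r, the receptor of a macrophage growth factor, and Cd14, a co-receptor of endotoxin, rose by 0.49 and 0.50. By their mean over all arrays, 11 of the 17 lay below the median of all values. Among these, Ptprc (CD45) lay at 3.06 in CD73+ AD-MSCs and 3.19 in CD73- AD-MSCs. Itgam lay at 3.25 and 3.32, and Adgre1 at 4.59 and 4.51, each pair in the same order. The others were brighter, in that order Csf1r at 6.87 and 6.38, Cd14 at 6.66 and 6.16 and Cd3e at 6.17 and 6.11. Cd68 had 5.70 and 5.51, Lyz2 5.49 and 5.36, and Mpeg1 5.46 and 5.30. No marker lay at 0 because RMA gives none. Of 13 stromal markers, 8 were higher and 0 were lower (11 and 0 unadjusted), with a summed linear signal of 44599 to 44922 on the CD73+ and 32196 to 32588 on the CD73- arrays. Dcn and S100a4 rose the most of them on their brightest probe sets, by 1.24 and 1.03. Dcn passed on 1 of its 2 probe sets, and its other had 0.084. Lum lay low, at 3.51 in CD73+ AD-MSCs and 3.64 in CD73- AD-MSCs. Of 10 endothelial markers 0 were higher and 0 were lower in limma (0 and 0 unadjusted), with summed linear signals of 233 to 255 on the CD73+ and 245 to 260 on the CD73- arrays. Of 7 adipocyte markers 0 were higher and 1, Pparg, the regulator of fat cell formation, was lower by 0.24 in limma (0 and 2 unadjusted). Fabp4, a fatty acid carrier of fat cells, had -0.29 on its brightest probe set, which did not pass, and was higher on 2 of its 4, by up to 1.78. The summed signal of this list, most of it from the lipase gene Lpl, had values of 787 to 825 on the CD73+ and 849 to 909 on the CD73- arrays. Of 8 epithelial and mesothelial markers 1, the mesothelin gene Msln, was higher by 0.61 and 0 were lower in limma (4 and 0 unadjusted), with a median of 0.20 and sums of 237 to 260 on the CD73+ and 207 to 236 on the CD73- arrays. The part of these cells in the values of the mediators was not tested.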

How the data were processed

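In all, 6 arrays of mouse AD-MSCs were analysed, 3 CD73+ and 3 CD73-, grouped by their titles. The deposited table gives log2 values for 45101 probe sets, made with RMA per the submitters' processing notes, and the software version is not stated in them. RMA makes the arrays' distributions nearly alike, which removes a shift shared by most transcripts, and tends to compress small ratios.
Values were used as deposited. After 64 control probe sets were set aside, limma 3.58.1 (R 4.3.3, lmFit, then eBayes on its default prior) was fitted to 45037 without a filter, and p-values were adjusted by Benjamini-Hochberg over these, at a threshold of 0.05. The study's methods name no test for single probe sets. A gene was read from its brightest probe set with 1 symbol. The fit was tested on simulated data. Standard errors and 95% intervals come from limma, and the number of arrays limits the precision.
The members and the 13 gene lists, compiled by hand, were chosen with earlier results of these data known. Named were all members, the list genes with the largest rises and falls that passed (2 of each), and, after their values were seen, every gene of a list where 5 or fewer passed in a direction, and neighbours of the mediators that did not pass. Other paths to a result, namely a replicate block, other scalings, a filter, other priors, the methods' t-test (the study's general test applied to 2 subgroups) and leaving out each array, were tried. Promoter sequences are those of RefSeq. Figures were drawn with matplotlib 3.10.9. Scanner files and the other experiments of the study were not analysed here.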

Additional observations from a re-analysis of the deposited data

How the results depend on the processing

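Ptges on the 2 probe sets that passed, Tnfaip6 and their directions kept their calls under every alternative that could be run for them, and Cd274 under all but the scaling to the poly-A controls. The filter at the median level left 7 of the 13 probe sets, without Tnfaip6 and 1 of these Ptges probe sets. With that filter the second probe sets of Ptgs2 and Lgals1 passed (limma's adjusted p 0.0370 and 0.0454). Scaling to the poly-A controls gave 12 probe sets higher and 0 lower, and 8 genes higher and 0 lower, with Cd274 at -0.0018. Under it the log2 differences of Ido1 and Arg1 became 0.92 and 0.87, and those of list genes that were lower on the deposited scale turned, with Abcc4 0.56, Gch1 0.48, Slc7a1 0.58, Slc3a2 0.35, Slc7a5 0.52, Kyat1 0.53, Wars 0.54, Havcr2 0.58, Lgals8 0.59, Lgals3 0.67, Cd200 0.52, Lif 0.57, Tnfrsf11b 0.68, Tlr3 0.32, Irf9 0.54, Rela 0.55 and Tlr4 0.69. Limma with a trend gave 8 probe sets and 5 genes higher, adding Lgals1, Lgals9 and the second Ptgs2 probe set, and the methods' t-test gave 7 higher and 1 lower unadjusted and 5 and 1 after Benjamini-Hochberg adjustment.
With the replicate number as a block, 3 probe sets were higher and 1 lower, and the Ptgs2 call ended (limma's adjusted p = 0.0705). The block took all calls to 3080 higher and 2713 lower, against 4408 and 4105 without it. Deviations of arrays with the same number had r of -0.138, 0.0276 and -0.136 over all probe sets. With 3 arrays per subgroup these values cannot show whether such arrays share a sort or culture, which the labels do not give. Leaving out each array gave 3 to 4 probe sets and 2 to 3 genes higher and 1 lower. Of 37 list genes named as passed, 23 kept their call without any 1 array, and the block ended that of 9. Median centring gave 3451 higher and 4382 lower of all probe sets, against 4408 and 4105. Among the 16 list counts, none moved by over 1.5 times with a robust prior or without CD73- replicate 3, 15 did under the poly-A scaling, and between 2 and 5 did under each other alternative. Dim probe sets, such as that of Arg1, limit what can be seen.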
